A study of Mus musculus with 16 samples.

Results

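The 10 genes described here encode the machinery that puts peptides on MHC class I molecules. They were taken by symbol from the 23179 genes listed for mouse mammary adipose tissue: the class I heavy chains H2-K1 and H2-D1, the light chain B2m, the peptide transport and loading genes Tap1, Tap2 and Tapbp, the immunoproteasome subunits Psmb8, Psmb9 and Psmb10, and the transactivator Nlrc5. All 10 were listed and all 10 passed the filter on low values. The tissue was the mammary fat pad on the side opposite an orthotopic tumor, profiled by stranded total RNA-Seq in 16 libraries from separately numbered mice, 4 in each of 4 groups. All mice were female C57BL/6N, were 8 weeks old on arrival and received E0771 cells, a mouse mammary cancer line, in the opposite fat pad 22 weeks after diets were assigned. CON-LFD mice stayed on a low-fat diet. Mice with diet-induced obesity (DIO), made with a 60% high-fat diet, either continued on that diet (DIO-HFD), switched to low-fat feeding (DIO-LFD), or had vertical sleeve gastrectomy, a removal of part of the stomach, together with the low-fat diet (DIO-VSG). The mice without gastrectomy had a sham operation, so tumor cells and an operation were common to all 4 groups.

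In antigen presentation, the proteasome cuts cytosolic proteins into peptides, and the transporter made of Tap1 and Tap2 carries them into the endoplasmic reticulum. There tapasin, the product of Tapbp, holds the transporter next to an empty class I molecule while a peptide is loaded, and the complex of heavy chain, B2m and peptide moves to the cell surface, where CD8+ T cells read it. The subunits Psmb8, Psmb9 and Psmb10 replace the constitutive catalytic subunits Psmb5, Psmb6 and Psmb7 when interferon-γ acts on a cell, and they are also made constitutively in many lymphoid cells. Nlrc5 enters the nucleus and assembles with the RFX complex and NF-Y at class I promoters.

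Of the 10 genes, 7 lie on chromosome 17 in the mouse MHC (GRCm38, GENCODE M21). Psmb9 (17:34181987-34187764, minus strand), Tap1 (17:34187553-34197225, plus), Psmb8 (17:34197721-34201454, plus) and Tap2 (17:34203527-34216321, plus) follow each other within 34.3 kb. H2-K1 (17:33996017-34000347, minus) and Tapbp (17:33915899-33929292, plus) lie on one side of this block and H2-D1 (17:35262730-35267499, plus) on the other. B2m lies on chromosome 2 (2:122147686-122153083, plus), and Nlrc5 (8:94434356-94527272, plus) and Psmb10 (8:105935735-105938444, minus) lie on chromosome 8. The annotated genes Psmb9 and Tap1 overlap by 212 bases on opposite strands, and whether counting used the strand was not stated, so reads in that overlap may not be told apart.

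Upstream sequence is shown for the class I chains and Psmb8, because H2-K1 and H2-D1 share a near-identical stretch there while the spread of their levels between libraries differed. RefSeq promoters (GRCm38.p6) were found for 8 of the 10 genes, and the 250 bases before each start were searched on both strands for 4 motifs, which did not overlap each other where they matched. These were GAAANNGAAA for interferon-regulatory factors, TTCNNNGAA for STAT factors, GGGNNTTCC for NF-kB and CCAAT for NF-Y. Of 32851 such windows, 2.98%, 7.02%, 4.98% and 33.8% held them. RefSeq gives H2-K1 a second start, and the first is used here. Capitals mark the matches in these sequences.
H2-K1, chr17:34000358-34000597, minus strand, 250 to 11 bases before the start: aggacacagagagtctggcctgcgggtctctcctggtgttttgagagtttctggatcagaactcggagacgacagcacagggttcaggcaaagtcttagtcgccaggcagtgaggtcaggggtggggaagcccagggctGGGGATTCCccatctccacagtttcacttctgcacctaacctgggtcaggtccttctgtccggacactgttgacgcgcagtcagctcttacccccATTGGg
B2m, chr2:122147437-122147676, plus strand, 250 to 11 bases before the start: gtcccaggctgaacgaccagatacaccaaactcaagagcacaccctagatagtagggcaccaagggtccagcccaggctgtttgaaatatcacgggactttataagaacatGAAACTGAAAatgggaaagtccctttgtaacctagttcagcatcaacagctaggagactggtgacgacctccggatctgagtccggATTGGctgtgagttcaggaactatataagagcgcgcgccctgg
H2-D1, chr17:35262913-35262942, plus strand: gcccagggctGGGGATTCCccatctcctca
Psmb8, chr17:34198088-34198117, plus strand: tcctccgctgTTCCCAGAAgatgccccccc

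The 30-base stretches of H2-K1 and H2-D1 around the NF-kB match were identical at 29 of 30 bases. B2m held the only match of the string GAAANNGAAA among the 8 genes, and Psmb8 the only match of TTCNNNGAA. Tap1 and Psmb9 start 226 bases apart on opposite strands, so that 225 bases of their windows are shared, and their only match was the CCAAT next to the start of Psmb9. No match was found for Psmb10, and Tapbp had matches of the NF-Y motif only. A match describes letters in the window and is not evidence of binding.

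Values are normalized counts, that is, reads divided by the size factor of the library, and fold changes are log2 differences of normalized count + 1. Per kilobase of the principal transcript, the mean over the 16 libraries was highest for B2m, at 99437 normalized counts per kb. H2-K1 followed with 37248 and H2-D1 with 34924 per kb, which lay close together. The loading and proteasome genes were lower on this scale, from 5502 per kb in Tapbp, 2863 in Psmb8 and 1991 in Tap1 to 1731 in Tap2, 1732 in Psmb9, 1463 in Psmb10 and 710 in Nlrc5.

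Among the class I chains, H2-K1 varied more between libraries than H2-D1. On the log2 scale their SDs were 0.29 and 0.097, at the 36.1 and 2.39 percentile of all tested genes. H2-K1 was at 48037, 47536, 70016 and 44446 normalized counts in the CON-LFD libraries 1 to 4, at 81415, 52183, 41780 and 61812 in DIO-HFD, at 56659, 58620, 59355 and 61236 in DIO-LFD, and at 80100, 68174, 66993 and 66522 in DIO-VSG. CON-LFD library 3 was within the DIO-VSG range and DIO-HFD library 1 above it, the other libraries of these groups lay below it, and all DIO-VSG libraries lay above all DIO-LFD libraries. H2-D1 was at 64665, 67395, 77435 and 75760 in CON-LFD, at 73631, 78799, 68209 and 66846 in DIO-HFD, at 79918, 75984, 72863 and 75184 in DIO-LFD, and at 79129, 75363, 68401 and 74968 in DIO-VSG. All 4 groups overlapped, and the highest library was 1.24-fold the lowest for H2-D1 against 1.95-fold for H2-K1. Reads of these heavy chains may be exchanged between them and the other class I genes by the counting, so their separate levels are uncertain. How many reads this concerns was not measured.

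B2m, which pairs with every class I heavy chain, did not follow H2-K1. It was at 106314, 77908, 99652 and 133005 normalized counts in CON-LFD, at 81030, 95350, 89235 and 76364 in DIO-HFD, at 58094, 74291, 66503 and 86489 in DIO-LFD, and at 86559, 80794, 70679 and 85986 in DIO-VSG. CON-LFD libraries 1, 3 and 4 were higher than every library of the obese groups, and library 2 lay among them. The mean was 104220 ± 22702 (SD, n = 4) in CON-LFD and 71344 ± 12070 in DIO-LFD.

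Tap1, a subunit of the peptide transporter, was among the genes that varied most, 3.56-fold from the lowest to the highest library. It was at 3873, 3482, 8330 and 2894 normalized counts in CON-LFD, at 10297, 3753, 3412 and 6494 in DIO-HFD, at 4376, 6185, 5506 and 5239 in DIO-LFD, and at 8782, 7417, 7128 and 6893 in DIO-VSG. The CON-LFD and DIO-HFD groups each held low and high libraries, whereas the DIO-LFD group was intermediate and the DIO-VSG group was high throughout. Tap2, its partner, spanned 1.87-fold, with 4484, 5261, 7041 and 3940 in CON-LFD, 7076, 4805, 5013 and 5473 in DIO-HFD, 5171, 7374, 6729 and 6612 in DIO-LFD, and 7098, 6113, 6600 and 6566 in DIO-VSG. Tapbp was nearly level, between 14855 and 17061 over the 16 libraries, or 1.15-fold. Its SD of 0.055 on the log2 scale placed it at the 0.0566 percentile of all 21218 tested genes, against the 67.5 percentile for Tap1. Among genes of like expression the percentiles were 0.0943 for Tapbp and 90.3 for Tap1.

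The immunoproteasome subunits Psmb8 (β5i) and Psmb9 (β1i) had the pattern of Tap1. Psmb8 was at 3183, 3161, 5986 and 2710 normalized counts in CON-LFD, at 7780, 3433, 2796 and 5056 in DIO-HFD, at 3606, 4797, 4699 and 4266 in DIO-LFD, and at 6574, 5408, 5664 and 5443 in DIO-VSG. Psmb9 was at 1673, 1493, 3150 and 1377 in CON-LFD, at 4042, 1598, 1293 and 2588 in DIO-HFD, at 1784, 2450, 2230 and 2205 in DIO-LFD, and at 3423, 2666, 2770 and 2733 in DIO-VSG. In both genes the third CON-LFD library and the first DIO-HFD library stood well above the rest of their groups, and the DIO-VSG libraries all lay above the DIO-LFD libraries. Psmb10 (β2i) moved less, between 1527 and 2518, and its groups overlapped in every comparison.

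Nlrc5, the transactivator of class I genes, was at 3686, 3250, 7409 and 2678 normalized counts in CON-LFD, at 9550, 3770, 3643 and 6193 in DIO-HFD, at 4822, 5156, 4819 and 4849 in DIO-LFD, and at 7977, 6022, 6065 and 6225 in DIO-VSG. The highest and lowest libraries were the same 2 as for Tap1, 3.57-fold apart. The DIO-LFD libraries were close together, with an SD of 163 against 2768 in DIO-HFD (n = 4 each).

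**Figure D1:**
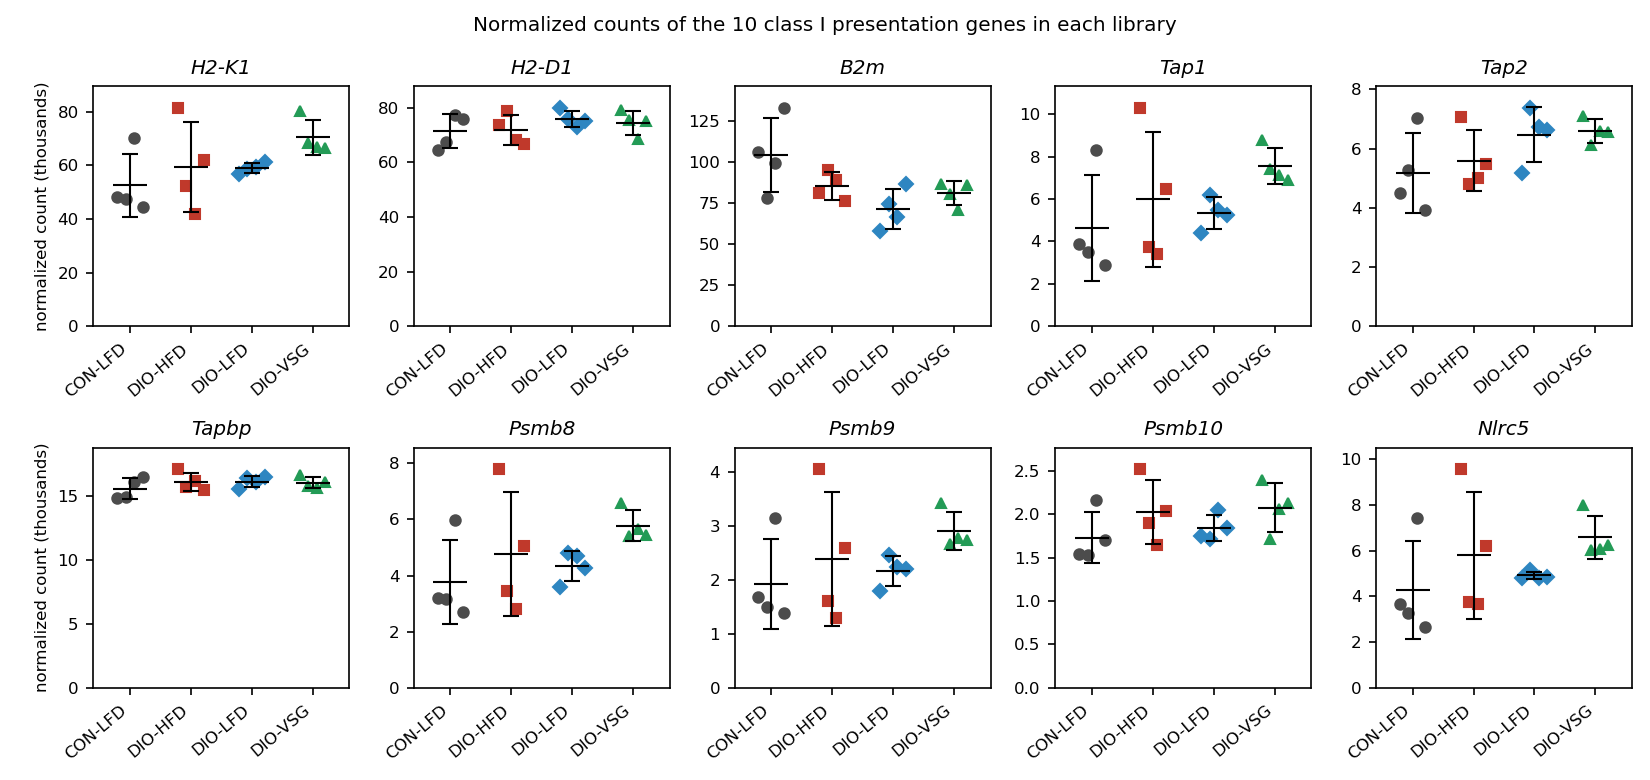
Normalized counts (linear axis from 0, scaled down by the factor printed on it) of the 10 genes in each library by group, with points for libraries in the order of their replicate number, a long bar for the group mean and whiskers of 1 SD (n = 4). H2-D1 and Tapbp were nearly level (1.24-fold and 1.15-fold from lowest to highest library), while Tap1 and Nlrc5 spanned 3.56-fold and 3.57-fold.

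A block of the genes varied together. Over the 16 libraries, H2-K1, Tap1, Psmb8, Psmb9 and Nlrc5 had pairwise Pearson r values of 0.95 to 0.99 on the log2 scale. The range was also 0.95 to 0.99 after the mean of each group was subtracted. This value pools the groups, and CON-LFD and DIO-HFD had the widest spread in these genes, while the order of the DIO-LFD and DIO-VSG libraries differed between them. Tap2 had an r of 0.81 to 0.86 with the 5 genes, and Psmb10 an r of 0.8 to 0.84. Tapbp and H2-D1 reached at most 0.6 with any other gene of the 10, and B2m had negative values with all of them except Tapbp, where r was 0.13. After the group means were subtracted, r of B2m was 0.57 with Tapbp, 0.37 with H2-D1 and 0.016 with Psmb10, and negative with the rest. These correlations are descriptions of 16 libraries that differ in cell content, and no test was made.

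**Figure D2:**
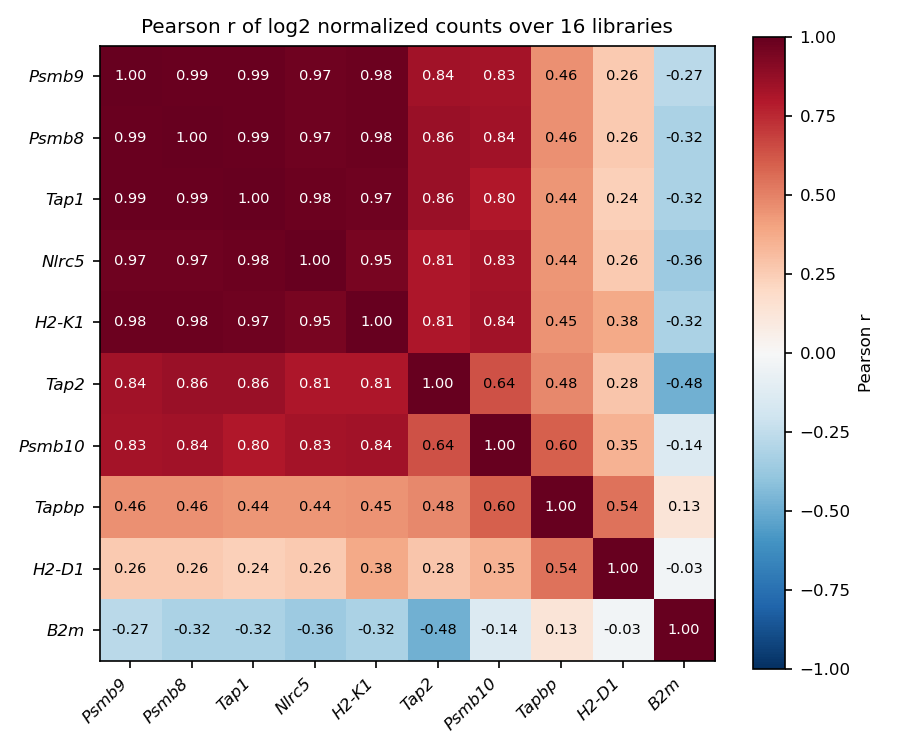
Pearson r of log2 normalized counts for each pair of the 10 genes over 16 libraries (color scale from -1 to 1, value printed in each cell). Psmb9, Psmb8, Tap1, Nlrc5 and H2-K1 form a block with r of 0.95 to 0.99, and B2m has negative values with most genes.

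Among all tested genes, the one most like Psmb8 was Psmb9 (r = 0.994), and for Tap1 it was Psmb8 (r = 0.992). Outside the 10 genes and leaving out predicted genes, Rbck1, which encodes a ubiquitin ligase subunit, was nearest to Tap1 (r = 0.984), Psmb8 (0.985) and Psmb9 (0.989), and the class I gene H2-T10 came next for Psmb8 (0.977) and Psmb9 (0.981). The nearest for H2-K1 was the deacetylase gene Sirt7 (0.983), followed by Lime1 (0.979) and Rps27 (0.977), and for Nlrc5 it was Ppp1r16b (0.981), followed by Kmt2a (0.979) and Zdhhc18 (0.974). For Psmb10 it was Irf1 (0.933), an interferon-induced transcription factor, and for Tap2 the tetraspanin gene Cd82 (0.937). B2m was closest to the calmodulin gene Calm2 (0.867), Tapbp to Cdipt (0.856) and H2-D1 to Tmem234 (0.76), each at a lower r than the genes above.

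Obese and lean mice were compared through DIO-HFD and CON-LFD, and no gene of the 10 passed the test (limma-trend, Benjamini-Hochberg adjusted over 21218 genes). Adjusted calls made up 0.0377% of all genes. At an unadjusted p below 0.05 there were also 0 of the 10, against 5.23% of all genes higher and 7.66% lower, and limma-voom on the recovered reads gave 0 by both rules. The median log2 fold change of the 10 was 0.19, against 0.021 over all tested genes. Nlrc5 had the highest, 0.44 ± 0.31 (SE, n = 4 per group, 95% CI -0.22 to 1.11), from 4256 ± 2142 normalized counts (SD) in CON-LFD to 5789 ± 2768 in DIO-HFD, with an unadjusted limma p of 0.174. B2m had the lowest, -0.27 ± 0.17 (limma, adjusted p of 0.532). For H2-K1, Tap1, Psmb8, Psmb9 and Nlrc5 the SD was larger in each of these 2 groups than in DIO-LFD or DIO-VSG. Without the third CON-LFD library, 3 of the 10 had an unadjusted p below 0.05, where the share of all genes was 8.86% higher and 10.8% lower, and without the second CON-LFD library (3.79% and 4.74%) or the third DIO-HFD library (4.19% and 8.39%) 1 had. Weighting libraries by their fit gave adjusted calls for 6 of the 10 and for 4196 of all 21218 genes, and in that fit the fourth DIO-HFD library had a weight of 10.9 and the others between 0.222 and 2.35.

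Relative to DIO-HFD, DIO-VSG also gave no call among the 10, by limma-trend or by limma-voom, adjusted or not. Adjusted calls were 0% of all genes, and 5.05% were higher and 8.12% lower at an unadjusted p below 0.05. The median log2 fold change was 0.27 (0.02 over all genes), with 0.48 ± 0.34 (SE, n = 4) for Tap1, 0.42 ± 0.31 for Psmb9, 0.38 ± 0.28 for Psmb8 and 0.29 ± 0.19 for H2-K1. H2-D1 (0.052 ± 0.1), Psmb10 (0.04 ± 0.14), Tapbp (-0.0046 ± 0.067) and B2m (-0.077 ± 0.17) were near 0. The first DIO-HFD library, the highest of all 16 for 7 of the 10 genes, bore on this comparison. Without it the log2 fold change was 0.45 for H2-K1, 0.78 for Tap1, 0.37 for Tap2, 0.66 for Psmb8 and 0.72 for Psmb9, and these 5 had an unadjusted limma p of 0.0165 to 0.0449 (adjusted 0.117 to 0.171). In that fit 14.3% of all genes were higher and 13.3% lower at an unadjusted p below 0.05.

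For DIO-LFD relative to DIO-HFD, the change of diet without surgery, the 10 genes had a median log2 fold change of -0.017 and 0 were called by limma-trend or limma-voom by either rule. Adjusted calls made up 0% of all genes, and 5.37% were higher and 3.16% lower at an unadjusted p below 0.05. The widest differences were those of B2m, -0.27 ± 0.17 (SE, n = 4, 95% CI -0.63 to 0.089), and Tap2, 0.22 ± 0.17 (-0.15 to 0.58). The intervals of Tap1 (-0.76 to 0.69), Psmb8 (-0.64 to 0.58), Psmb9 (-0.67 to 0.67) and Nlrc5 (-0.78 to 0.54) were wide and included values of either sign. Those of Tapbp (-0.14 to 0.15) and H2-D1 (-0.14 to 0.3) were narrow.

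The comparison of DIO-VSG with DIO-LFD set surgical against dietary weight loss. All 4 DIO-VSG libraries lay above all 4 DIO-LFD libraries for 5 of the 10 genes, H2-K1, Tap1, Psmb8, Psmb9 and Nlrc5, while 12.9% of all genes were placed this way and 5.83% the opposite way. The log2 fold changes were 0.25 ± 0.19 (SE, n = 4), 0.51 ± 0.34, 0.42 ± 0.28, 0.42 ± 0.31 and 0.41 ± 0.31. With 1 estimate of spread from all 16 libraries, none of the 10 had an unadjusted limma p below 0.05 (all genes: 4.3% higher, 5.41% lower, 0% with an adjusted call), and limma-voom gave 0 as well. The spread shared by the groups was wider than that of these 2 groups: Tap1 had an SD of 846 in DIO-VSG and 749 in DIO-LFD but 2490 in CON-LFD and 3186 in DIO-HFD. When only the 8 libraries were fitted, the same 5 genes had an unadjusted limma p of 0.00271 to 0.0373, with adjusted p values of 0.0437 for Tap1 and 0.0448 for Nlrc5. In that fit 1533 of all 21218 genes had an adjusted call, and 15.6% were higher and 9.64% lower at the unadjusted threshold. H2-D1 (-0.03 ± 0.1), Tapbp (-0.0074 ± 0.067) and Tap2 (0.037 ± 0.17) did not separate the groups.

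The highest log2 fold change of the 60 was that of Tap1 in DIO-VSG relative to lean controls. H2-K1, Tap1, Tap2, Psmb8 and Nlrc5 were higher at an unadjusted limma p below 0.05, that is 5 of the 10 where 10.2% of all genes were higher and 7.55% lower, and none passed adjustment (0% of all genes). The log2 fold change was 0.82 ± 0.34 (SE, n = 4) for Tap1, 0.73 ± 0.31 for Nlrc5, 0.69 ± 0.28 for Psmb8, 0.44 ± 0.19 for H2-K1 and 0.38 ± 0.17 for Tap2, with unadjusted p values of 0.0291 to 0.0413 and adjusted p values of 0.268 to 0.271. Psmb9 followed with 0.67 ± 0.31 (unadjusted limma p of 0.0505), and B2m was at -0.34 ± 0.17 (unadjusted p of 0.061). The groups overlapped in all 10 genes, and for H2-K1, Tap1, Tap2, Psmb8, Psmb9 and Nlrc5 the third CON-LFD library was the only one of its group within the DIO-VSG range. Without that library, adjusted limma p values were 0.0497 for Tap1 and 0.0496 for Nlrc5, while 873 of all 21218 genes had an adjusted call and 17.9% were higher and 12.6% lower unadjusted. Without CON-LFD library 1 (all genes 7.59% higher), CON-LFD library 4 (4.2%) or DIO-VSG library 1 (4.93%), 0 of the 10 had an unadjusted p below 0.05, and without CON-LFD library 2 (4.39%) it was 1. The fold changes of all 10 kept their sign in all 26 alternatives.

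The only lower value past the unadjusted threshold was that of B2m in DIO-LFD relative to CON-LFD. Its log2 fold change was -0.54 ± 0.17 (SE, n = 4, 95% CI -0.9 to -0.18), the unadjusted limma p was 0.00648 and the adjusted p 0.572. It was 1 of the 10 where 3.03% of all genes were lower and 3.23% higher, and adjusted calls made up 0.00471% of all genes. The unadjusted p of B2m was below 0.05 in 26 of 26 alternatives, and none of the other members had an unadjusted p below 0.05 in this comparison by limma-trend or limma-voom. Without CON-LFD library 3, 3 of the 10 were past the unadjusted threshold (all genes 7.6% higher, 4.91% lower), and without DIO-HFD library 1 (3.57%, 3.48%) or DIO-LFD library 1 (2.81%, 2.88%) it was 2. The remaining fold changes ran from 0.051 ± 0.067 for Tapbp to 0.34 ± 0.17 for Tap2.

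**Figure D3:**
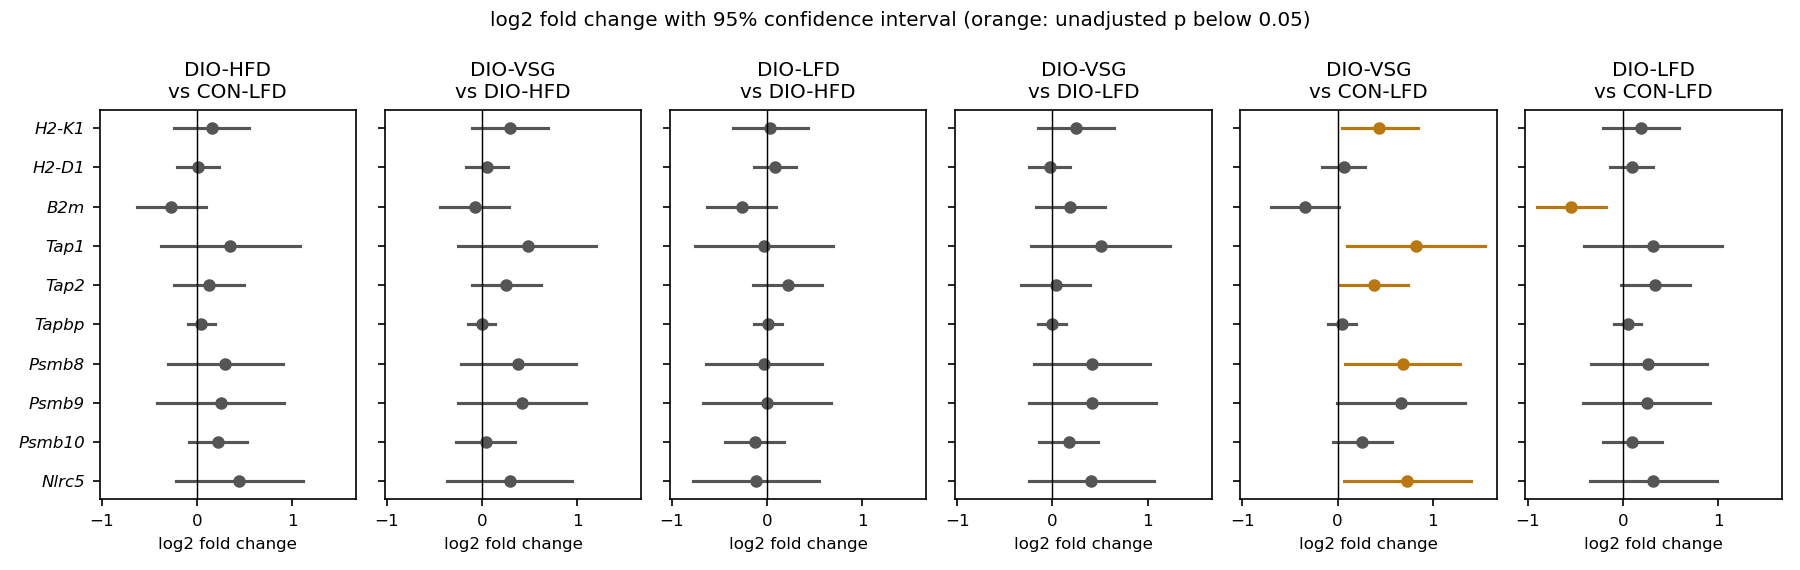
Log2 fold change of each gene in the 6 comparisons (points, first group minus second) with its 95% confidence interval (lines) from limma-trend on 16 libraries. Orange marks an unadjusted p below 0.05, which was met by 5 genes in DIO-VSG against CON-LFD and by B2m in DIO-LFD against CON-LFD.

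The RNA of each inducible subunit was set as a ratio to the RNA of the constitutive subunit it replaces. In bulk tissue such a ratio does not measure the share of assembled immunoproteasome. Over the 16 libraries Psmb8 ranged 2.87-fold against 1.64-fold for Psmb5, and Psmb9 3.13-fold against 1.35-fold for Psmb6, while Psmb10 (1.65-fold) and Psmb7 (1.63-fold) had nearly the same range. Psmb8 to Psmb5 was 1.38, 1.15, 3.13 and 1.25 in CON-LFD as a ratio of normalized counts. It was 4.08, 1.65, 1.05 and 2.74 in DIO-HFD, 1.33, 1.7, 2.01 and 1.4 in DIO-LFD, and 3.37, 2.43, 2.42 and 2.29 in DIO-VSG. Per transcript length the DIO-VSG mean was 1.45 and the DIO-LFD mean 0.889. Psmb9 to Psmb6 was 0.7 to 1.05 in DIO-VSG and 0.51 to 0.63 in DIO-LFD, with 0.35 to 1.02 in CON-LFD and 0.35 to 1.38 in DIO-HFD. Psmb10 to Psmb7 was 0.45 to 0.72 in DIO-VSG and 0.39 to 0.57 in DIO-LFD, which overlapped.

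Both of the first 2 ratios were higher in every DIO-VSG library than in every DIO-LFD library. The log2 difference was 0.71 for Psmb8 to Psmb5 and 0.52 for Psmb9 to Psmb6, each with p = 0.0286 in the exact two-sided permutation test (n = 4 per group), the smallest that 70 splits allow. Adjusted over the 18 tests of 3 ratios and 6 comparisons, both were at 0.257. The denominator of the first ratio also differed in level: Psmb5 had a log2 fold change of -0.29 ± 0.13 (SE) in DIO-VSG relative to DIO-LFD (unadjusted limma p of 0.0466, adjusted p of 0.51). No other of the 18 tests had an exact permutation p below 0.114.

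**Figure D4:**
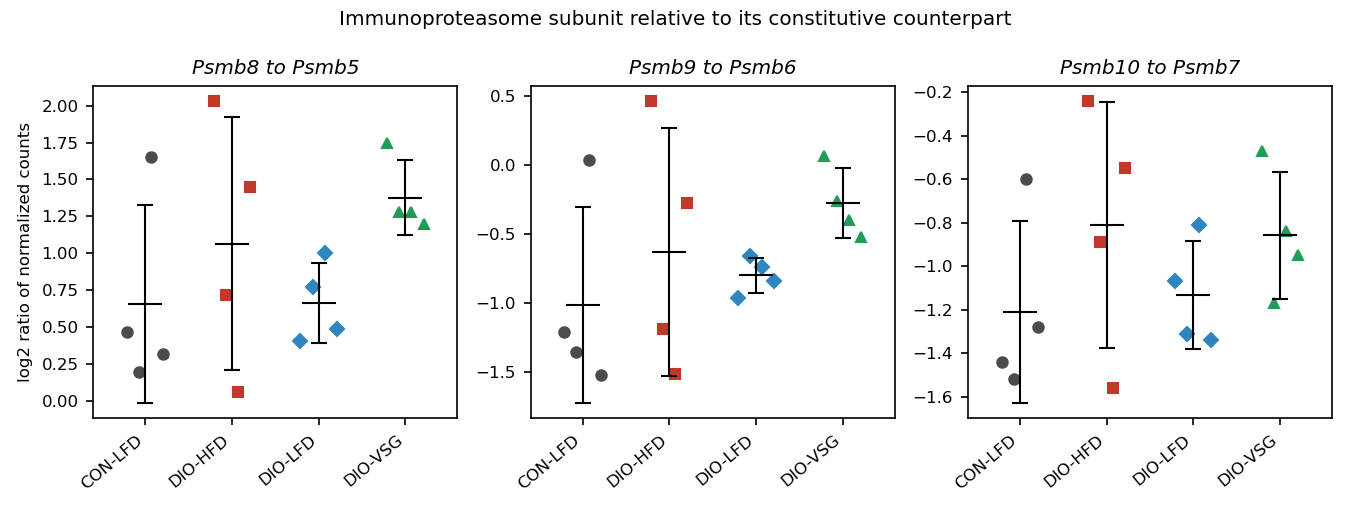
Log2 ratio of normalized counts of Psmb8 to Psmb5, Psmb9 to Psmb6 and Psmb10 to Psmb7 in each library (points), with the group mean (long bar) and 1 SD (whiskers, n = 4). The DIO-VSG libraries lie above the DIO-LFD libraries in the first 2 panels, by 0.71 and 0.52 on average.

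Immune cell markers varied over the same libraries. The summed normalized count of 21 T and B cell markers was 57546, 2962, 203842 and 19977 in CON-LFD, 299932, 11519, 16071 and 156121 in DIO-HFD, 50814, 77652, 86092 and 101337 in DIO-LFD, and 183410, 198262, 183313 and 154005 in DIO-VSG. The high libraries of the first 2 groups were the same that were high in Tap1, and the DIO-VSG group was again high and even. Of the defining markers, Cd8a, the coreceptor that binds class I molecules, ranged from 64.4 in a DIO-HFD library to 6125 in another, and was 1188 to 2693 in DIO-LFD and 3509 to 5402 in DIO-VSG. Cd3e was 69.9 to 4974 and Ptprc 1511 to 44902 over the 16 libraries, and neither was at 0. Adipoq, which marks adipocytes, was between 30428 and 123530, Krt18 of epithelium between 5269 and 26110 and Pecam1 of endothelium between 10653 and 25489. No gene of any marker list passed adjustment in any of the 6 comparisons. In DIO-VSG relative to CON-LFD, 8 of 10 T cell markers (list median 2.7) were higher at an unadjusted limma p below 0.05. The same held for 9 of 11 B cell markers (list median 3.94), where 10.2% of all genes were higher. It also held for 3 of 7 natural killer and cytotoxic, 2 of 7 dendritic cell, 2 of 5 leukocyte and 0 of 10 macrophage markers. In these lists 0 markers were lower. At an unadjusted limma p below 0.05, 3 of 8 epithelial markers were lower in DIO-HFD than in CON-LFD (7.66% of all genes), and 5 of 8 were higher in DIO-LFD than in DIO-HFD (5.37% of all genes, list median 0.67). Of 7 endothelial markers, 4 were lower in DIO-VSG than in DIO-HFD (8.12% of all genes, list median -0.61). In DIO-VSG relative to DIO-LFD, 0 of 8 adipocyte and 0 of 8 epithelial markers had a fold change above 0, and none of them passed the unadjusted threshold. Skeletal muscle markers summed to 1321 in the lowest DIO-LFD library and 115699 in the highest. The part of these cells in the results was not tested.

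The relation of the 10 genes to the lymphocyte marker level, the log2 of that sum, was computed over the 16 libraries, with p values from 100000 permutations adjusted over 10 relations. Pearson r was 0.87 for Tap1 and Psmb9, 0.86 for Nlrc5, 0.85 for Psmb8 and 0.84 for H2-K1, each with an adjusted permutation p of 0.0001 or less, and Spearman rho was 0.9 to 0.95. Psmb10 had an r of 0.69 (rho 0.76, adjusted permutation p = 0.0045) and Tap2 an r of 0.67 (rho 0.67, adjusted permutation p = 0.00641). Tapbp (r = 0.43, rho 0.34, adjusted permutation p = 0.12), H2-D1 (0.2, 0.1, 0.471) and B2m (-0.2, -0.1, 0.471) did not pass. Without the 2 libraries farthest from the median of the marker level, r was 0.91 to 0.96 for the first 5 genes. After subtraction of the group means it was 0.77 to 0.83 for those genes, 0.66 for Psmb10 and 0.56 for Tap2, a value that pools the 4 groups and has no p. The SD of the marker level was 2.58 in CON-LFD and 2.34 in DIO-HFD, against 0.43 in DIO-LFD and 0.15 in DIO-VSG. The p values above are for all 16 libraries together and so take in differences between groups. A doubling of the summed markers went with a 1.2-fold higher Tap1 and a 1.09-fold higher H2-K1. No r for the other tested genes is given beside these, so the relation is not shown to be particular to the 10 genes.

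**Figure D5:**
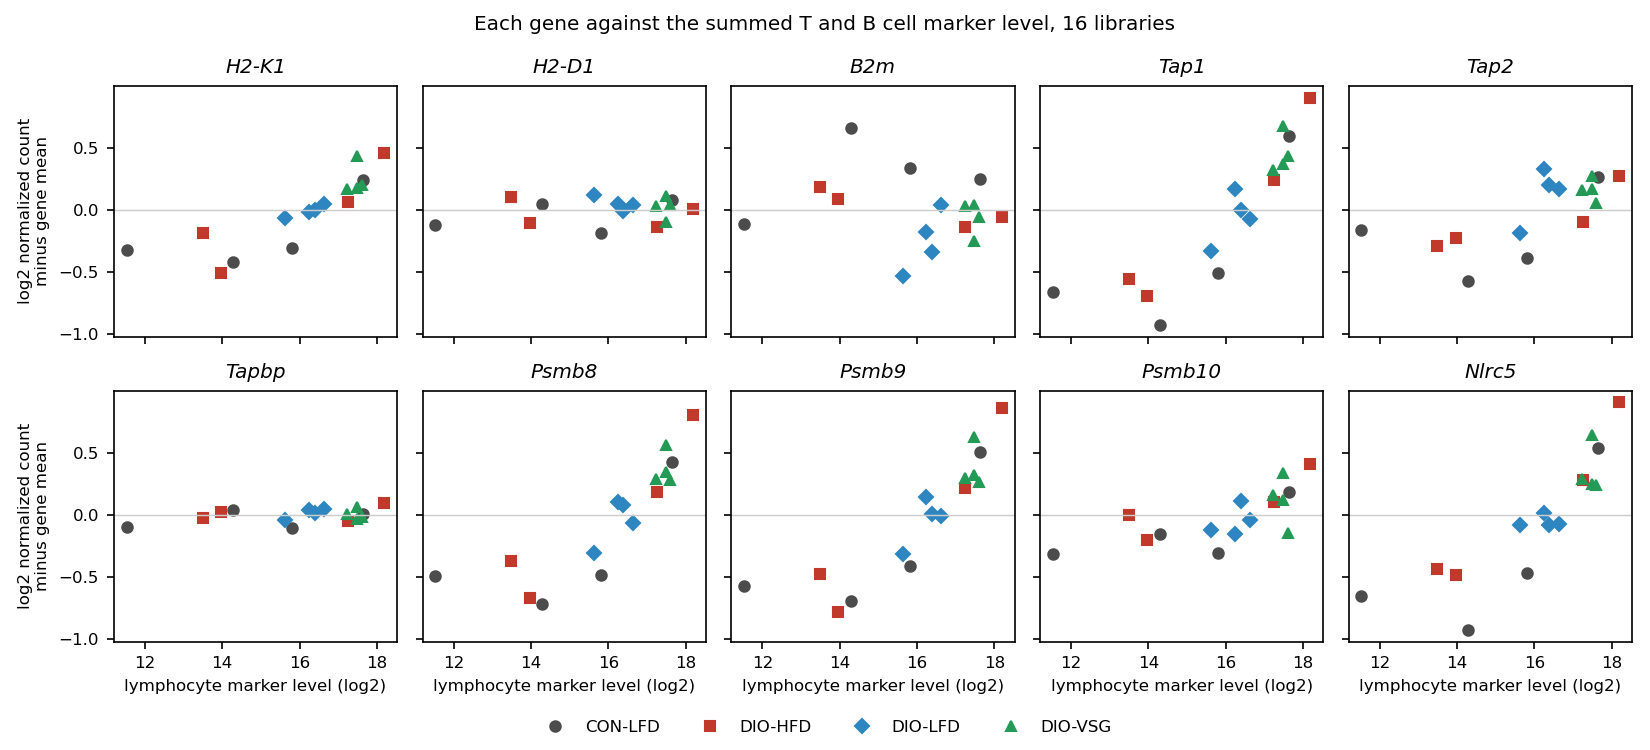
Log2 normalized count of each gene minus its mean over 16 libraries (y axis) against the lymphocyte marker level, the log2 of the summed normalized counts of T and B cell markers (x axis), with a point for each library and shape and color by group. Tap1, Psmb8, Psmb9, Nlrc5 and H2-K1 lie higher where the marker level is higher (r of 0.84 to 0.87), and H2-D1 and Tapbp stay near 0.

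In bulk tissue, more cells of a type and more RNA per cell cannot be told apart. With the lymphocyte marker level as a covariate in the limma fit, an alternative chosen after seeing the data, the log2 fold change in DIO-VSG relative to CON-LFD was 0.18 for Tap1, 0.15 for Nlrc5, 0.18 for Psmb8, 0.14 for H2-K1 and 0.17 for Tap2, and 0 of the 10 had an unadjusted p below 0.05. Of all genes, 1.98% were higher and 2.33% lower in that fit, against 10.2% and 7.55% without the covariate. Relative to DIO-LFD, the DIO-VSG log2 fold changes in that fit were 0.21 (Tap1), 0.18 (Psmb8), 0.15 (Psmb9), 0.14 (Nlrc5) and 0.11 (H2-K1). Their unadjusted limma p values were 0.323 to 0.473, where 3.44% of all genes were higher and 3.57% lower. The value of B2m in DIO-LFD relative to CON-LFD was -0.55 (unadjusted limma p of 0.00795). The log2 marker level itself differed by group, with a mean of 17.45 ± 0.15 (SD) in DIO-VSG and 14.82 ± 2.58 in CON-LFD. This fit therefore cannot tell lymphocytes and group apart. The part of lymphocytes in the differences between groups was not tested. Dendritic cell markers summed to 7585 to 10392 in DIO-VSG and 4192 to 6290 in DIO-LFD, and natural killer and cytotoxic markers to 1622 to 2072 and 825 to 1205, without overlap. The macrophage list overlapped, at 34635 to 77695 in DIO-VSG and 50523 to 75000 in DIO-LFD.

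Other genes of the pathway were taken from lists of 77 genes. In DIO-VSG relative to CON-LFD, 5 of the 13 tested further class I heavy chains were higher and 0 lower at an unadjusted limma p below 0.05, and the list's median log2 fold change was 0.61 against -0.021 over all genes. The share of all genes past that threshold was 10.2% higher and 7.55% lower. Those 5, named after their values were seen, were H2-M3 (0.97 ± 0.36, SE), H2-T10 (1.07 ± 0.41), H2-K2 (1 ± 0.42), H2-Q6 (1.19 ± 0.5) and H2-Q4 (0.61 ± 0.28). Both subunits of the proteasome activator PA28, Psme1 (0.35 ± 0.14) and Psme2 (0.37 ± 0.12, named after its value was seen), were also higher there at this looser rule, 2 of 5 activator and assembly genes. The 11 other core subunits of the proteasome had 1 higher, the 8 partners of Nlrc5 at class I promoters 0 and the 14 genes of the interferon signal 2, among them the interferon-induced inhibitor Socs1 (1.24 ± 0.44). Fold changes above 0 were found for 8 of these core subunits (median 0.069), 6 of the partners (0.17) and 12 interferon signal genes (0.3). Of 10 class I receptors of lymphocytes, 4 were higher, with Klrd1 at 2.52 ± 0.99. The 4 tested class I-like molecules had 0 fold changes above 0, 1 lower and a median of -0.5. The 7 genes of peptide loading and quality control had 2 fold changes above 0 and none past the threshold (median -0.029), and the 3 constitutive subunits had 0 above 0 (median -0.064). In DIO-VSG relative to DIO-HFD, 3 of the 13 heavy chains were higher (5.05% of all genes). There 1 of the 7 loading genes was lower (8.12%). In DIO-HFD relative to CON-LFD, 2 loading genes were higher (5.23%), and 1 heavy chain and 2 core subunits were lower (7.66%). Higher in DIO-LFD than in DIO-HFD were 2 core subunits, 1 heavy chain, 1 constitutive subunit and 1 activator gene (5.37%). Lower there was 1 loading gene (3.16%). DIO-LFD relative to CON-LFD had 2 core subunits and 1 loading gene higher (3.23%) and 1 loading gene lower (3.03%). In DIO-VSG relative to DIO-LFD, 3 of the 8 partners of Nlrc5 were higher (4.3% of all genes), and 2 of the 7 loading genes and 1 of the 3 constitutive subunits were lower (5.41% of all genes). None of the 75 tested among the 77 passed adjustment in any of the 6 comparisons.

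Interferon-stimulated genes outside the class I pathway were taken as a further list. The list of 22 had a median log2 fold change of -0.11 in DIO-VSG relative to CON-LFD, with 0 higher and 1 lower at an unadjusted limma p below 0.05, where 10.2% of all genes were higher and 7.55% lower. Relative to DIO-HFD the median was -0.21, again with 0 higher and 1 lower, where 5.05% of all genes were higher and 8.12% lower. The lower gene in both was the guanylate-binding protein gene Gbp2, at -0.34 ± 0.097 (SE, n = 4) in each. The summed level of the list was 36815 to 42852 in DIO-VSG, within the 33972 to 55496 of CON-LFD. Psmb10's nearest gene Irf1 was at 5339 ± 721 (SD) in DIO-VSG and 4076 ± 756 in CON-LFD.

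Of the further class I genes, H2-Q10 had the smallest unadjusted p in both comparisons with DIO-HFD that set the naming rule. H2-Q10, which encodes a secreted class I molecule, was at 6019, 5097, 3982 and 3427 normalized counts in CON-LFD, at 2358, 1430, 548 and 2171 in DIO-HFD, at 2520, 9506, 4620 and 5392 in DIO-LFD, and at 3343, 4798, 8005 and 5473 in DIO-VSG. The DIO-HFD libraries were the low ones, and the highest of them, 2358, lay close to the lowest DIO-LFD library, 2520. The log2 fold change was -1.68 ± 0.46 (SE, n = 4) in DIO-HFD relative to CON-LFD (unadjusted limma p of 0.0025, adjusted p of 0.215), where 7.66% of all genes were lower at the unadjusted threshold. It was 1.86 ± 0.46 in DIO-VSG relative to DIO-HFD (unadjusted limma p of 0.00111, adjusted p of 0.243, all genes 5.05% higher). For DIO-LFD against the same DIO-HFD libraries it was 1.8 ± 0.46 (unadjusted limma p of 0.00143, adjusted p of 0.329, all genes 5.37% higher). These comparisons share the DIO-HFD libraries, and none passed adjustment. H2-K1 and H2-D1 had 0.16 ± 0.19 and 0.012 ± 0.1 in DIO-HFD relative to CON-LFD.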

How the data were processed

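The authors sequenced stranded total RNA libraries as paired ends. Their methods name STAR and salmon with a GRCm38 genome and Gencode, whereas the submitters' processing notes list TopHat2 2.0.7, HTSeq 0.5.3p9, DESeq2 and mm10 without roles. The authors deposited log2 values, which are variance-stabilized normalized counts although described as normalized counts. The transformation was inverted, and 100.0% of values then gave whole reads (tolerance 0.01), with 46907377 to 57610899 reads per library. Groups were taken from the sample titles, and 0 columns lacked a sample.

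limma-trend (limma 3.58.1, R 4.3.3) was fitted to log2(normalized count + 1) of 16 libraries with group as the only term, for 21218 genes with at least 10 normalized counts in 4 libraries. Tests were two-sided, with Benjamini-Hochberg adjustment within each of 6 comparisons at 0.05 and an unadjusted p below 0.05 as a looser rule. Ratios were tested by exact permutation and relations by 100000 permutations (Python 3.11.15, numpy 2.4.6). The scripts were tested on simulated data. Alternatives were the deposited scale, a pseudocount of 5, no filter, scaling to total reads, quantile normalization, limma-voom, library weights, only the 8 libraries compared, a replicate block and leaving out each library. The lymphocyte marker level as a covariate was added after seeing the data.

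All 10 members were named, with their constitutive counterparts, up to 2 genes of each further list with the smallest unadjusted p in DIO-VSG against DIO-HFD or DIO-HFD against CON-LFD, the 3 genes most like each member and up to 8 cell markers. The members and lists were chosen with earlier results of these data known. Gene positions and transcript lengths came from GENCODE M21 (GRCm38), and promoters from RefSeq. The labels gave no batch, so relations within batches were not computed.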

Additional observations from a re-analysis of the deposited data

Results flagged for a closer look

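In groups of 4, a library was looked at again where its gap to the nearest library, divided by the range of the group, was above Dixon's 95% critical value. This was checked in 56 groups of values, of which chance gives about 1 in 20, and 6 were found. DIO-VSG library 1 was the highest of its group in 4 of them, with 0.868 for H2-K1, 0.8466 for Psmb9, 0.882 for Nlrc5 and 0.8518 for the log2 ratio of Psmb8 to Psmb5. CON-LFD library 3 was the highest for H2-K1 (0.82902, barely above that value), and DIO-LFD library 2 was the highest for Nlrc5 (0.907), where the group ranged only from 4819 to 5156 normalized counts.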

How the results depend on the processing

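The 60 log2 fold changes were recomputed under 26 alternatives, and 39 kept their sign in all of them, those of DIO-VSG against CON-LFD included. Library weights changed the counts of genes past the unadjusted threshold to 8 in DIO-HFD against CON-LFD (6 adjusted), 1 in DIO-VSG against DIO-HFD (1 adjusted), 1 in DIO-LFD against DIO-HFD, 3 in DIO-VSG against DIO-LFD, 8 in DIO-VSG against CON-LFD (7 adjusted) and 3 in DIO-LFD against CON-LFD. The weights also raised calls over all genes, with 8.14% to 20% higher and 8.88% to 18.8% lower unadjusted and 53 to 4226 adjusted calls of 21218. For DIO-VSG against DIO-LFD, quantile normalization gave 1, and fitting only the 8 libraries gave 5 (2 adjusted). The lymphocyte covariate, chosen after seeing the data, gave 0 for DIO-VSG against CON-LFD. Signs reversed under library weights for H2-D1 in DIO-HFD against CON-LFD (-0.0049), B2m (0.055) and Tapbp (0.047) in DIO-VSG against DIO-HFD, H2-K1 in DIO-LFD against DIO-HFD (-0.052) and Tap2 in DIO-VSG against DIO-LFD (-0.0045). Under quantile normalization they did so for B2m (0.12) and Tapbp (0.074) in DIO-VSG against DIO-HFD, H2-K1 in DIO-LFD against DIO-HFD (-0.04), and H2-D1 (0.13) and Tapbp (0.057) in DIO-VSG against DIO-LFD. Scaling to total reads, which moved the median of all genes to 0.16 in DIO-HFD against CON-LFD, reversed H2-K1 (-0.049), H2-D1 (-0.001) and Tapbp (-0.081) in DIO-LFD against DIO-HFD, and H2-D1 (0.02) and Tapbp (0.043) in DIO-VSG against DIO-LFD. The covariate reversed Psmb10 (-0.094) and Nlrc5 (-0.09) in DIO-VSG against DIO-HFD, H2-K1 (-0.022) and Tapbp (-0.0031) in DIO-LFD against DIO-HFD, Tap2 in DIO-VSG against DIO-LFD (-0.06), and Tap1 (-0.029), Psmb8 (-0.00093), Psmb9 (-0.07) and Psmb10 (-0.012) in DIO-LFD against CON-LFD. With 1 library left out, counts ran from 0 to 3 in DIO-HFD against CON-LFD, 0 to 5 in DIO-VSG against DIO-HFD, 0 to 7 (adjusted 0 to 2) in DIO-VSG against CON-LFD and 1 to 3 in DIO-LFD against CON-LFD. Leaving out 1 library also gave both signs in DIO-HFD against CON-LFD for H2-K1 (-0.01 to 0.31), H2-D1 (-0.033 to 0.053) and Psmb9 (-0.053 to 0.51), in DIO-VSG against DIO-HFD for Tapbp (-0.025 to 0.024) and Psmb10 (-0.053 to 0.15), in DIO-LFD against DIO-HFD for H2-K1 (-0.12 to 0.2), Tap1 (-0.25 to 0.28), Tapbp (-0.017 to 0.032), Psmb8 (-0.25 to 0.24), Psmb9 (-0.25 to 0.3) and Nlrc5 (-0.3 to 0.16), and in DIO-VSG against DIO-LFD for H2-D1 (-0.06 to 0.0098), Tap2 (-0.067 to 0.1) and Tapbp (-0.026 to 0.0047). The causes were not tested. The libraries were treated as unpaired. Correlations of same-numbered libraries ran from -0.61 to 0.53, with 9 of 24 over 0.1. No differently numbered pairs are given beside them, so these values do not settle whether the numbers pair libraries. The replicate block gave 4 genes for DIO-VSG against CON-LFD, 1 for DIO-LFD against CON-LFD and 0 elsewhere. Depth was 46907377 to 57610899 reads per library, and what depth or the number of libraries limits was not measured.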
